A study of Mus musculus with 12 samples.

Results

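MHC class I presentation was described through 10 genes of type 2 conventional dendritic cells (cDC2) of the mouse spleen. They were the class I heavy chain genes H2-K1, H2-D1, H2-Q4, H2-Q7 and H2-T23, the light chain gene B2m, the peptide transporter genes Tap1 and Tap2, the loading bridge gene Tapbp, and the transcription regulator gene Nlrc5. They were chosen by gene name, and all 10 were found among the 55322 genes of the deposited expression table, whose unit is FPKM (fragments scaled to gene length and to library size). RNA-seq had been run on 4 groups of 3 libraries, all from mice given 5 mg/kg lipopolysaccharide (LPS, a component of the bacterial outer membrane) into the peritoneum 4 days earlier. For CLP-cDC2 and CDP-cDC2, common lymphoid progenitors (CLP) or common dendritic cell progenitors (CDP) of wild-type C57BL/6J mice had been injected into the marrow of B6.SJL hosts that carry CD45.1, and the CD45.2+ progeny were sorted. The other groups came from Il7r-cre; Rosa26-lsl-tdTomato mice, in which a Cre recombinase driven by the interleukin-7 receptor gene, which lymphoid progenitors express, switches on tdTomato for good. L-cDC2 were their tdTomato+ cells and M-cDC2 their tdTomato- cells. Mice were 7 to 8 weeks old, per the growth protocol. It is not stated whether the libraries of a group came from separate mice or whether L-cDC2 and M-cDC2 were sorted from the same mice, so p-values measure the spread between these libraries, which may be technical.

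Class I molecules show peptides from inside the cell to CD8 T cells. The proteasome and cytosolic peptidases cut proteins into peptides, the TAP transporter carries the peptides into the endoplasmic reticulum, and tapasin with calreticulin and Erp57 holds an empty heavy chain and beta-2 microglobulin beside the transporter until a peptide binds. Interferons raise most genes of the pathway together, through IRF1 and through NLRC5, which acts with the RFX complex at class I promoters. Among dendritic cells, cDC2 are known mainly for priming CD4 T cells and cDC1 for showing captured antigen on class I.

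The promoters of the class I genes carry letters through which interferon, NF-kB and CREB or NF-Y proteins are known to act. They are shown as background, and no motif was related to the differences of the members between groups. The promoter table of RefSeq (GRCm38.p6) held 8 of the 10 members, without Tap2 and Nlrc5. The windows run from base -190 to base -1 before the most upstream start site in the table, 5′ to 3′ on the gene's own strand, with matches to the searched letters in capitals.
H2-K1 (chr17:34000348-34000537, minus strand): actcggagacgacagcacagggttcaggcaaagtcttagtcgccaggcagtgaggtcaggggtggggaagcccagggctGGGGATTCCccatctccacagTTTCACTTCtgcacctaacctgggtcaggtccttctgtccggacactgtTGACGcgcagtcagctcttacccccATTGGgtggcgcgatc
H2-D1 (chr17:35262904-35263093, plus strand): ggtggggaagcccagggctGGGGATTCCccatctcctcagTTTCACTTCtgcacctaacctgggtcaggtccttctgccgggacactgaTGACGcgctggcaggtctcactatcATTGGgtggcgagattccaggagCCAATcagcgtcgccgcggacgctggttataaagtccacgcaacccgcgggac
H2-Q4 (chr17:35379427-35379616, plus strand): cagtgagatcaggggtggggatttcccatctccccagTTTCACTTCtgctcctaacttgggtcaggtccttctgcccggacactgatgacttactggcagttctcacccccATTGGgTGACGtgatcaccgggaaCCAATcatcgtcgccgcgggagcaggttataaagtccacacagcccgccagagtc
H2-Q7 (chr17:35438965-35439154, plus strand): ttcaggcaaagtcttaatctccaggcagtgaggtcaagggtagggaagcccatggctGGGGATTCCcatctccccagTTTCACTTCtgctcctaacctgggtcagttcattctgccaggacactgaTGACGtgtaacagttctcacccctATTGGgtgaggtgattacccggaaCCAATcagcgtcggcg
H2-T23 (chr17:36032702-36032891, minus strand): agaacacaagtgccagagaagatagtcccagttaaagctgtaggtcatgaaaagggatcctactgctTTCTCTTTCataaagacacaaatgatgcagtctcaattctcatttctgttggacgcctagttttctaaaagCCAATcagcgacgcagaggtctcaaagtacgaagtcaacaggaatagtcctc
B2m (chr2:122147497-122147686, plus strand): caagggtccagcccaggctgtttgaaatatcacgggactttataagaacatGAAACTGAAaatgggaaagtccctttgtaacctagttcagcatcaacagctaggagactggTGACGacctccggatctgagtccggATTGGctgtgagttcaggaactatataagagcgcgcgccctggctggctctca
The searched letters, on both strands, were GGGGATTCC (part of an NF-kB site), GAANNGAAA and GAAANNGAA (parts of the interferon-stimulated response element, which can overlap each other), TGACG (the core of the X2 box, bound by CREB and ATF proteins) and CCAAT (the Y box, bound by NF-Y). GGGGATTCC was found before H2-K1, H2-D1 and H2-Q7, 3 of the 8 members, and in 0.213% of 32851 windows of 250 bases in the whole table. It has no match before H2-Q4, H2-T23, B2m, Tap1 or Tapbp, which says only that these exact letters are not in their windows. NF-kB sites with other letters were not searched. GAANNGAAA was found before H2-K1, H2-D1, H2-Q4 and H2-Q7 (6.31% of all windows), and GAAANNGAA before H2-T23 and B2m (7.13%). TGACG was found before 6 of the 8 members (17.8% of all windows) and CCAAT before 8 of 8 (33.8%), counted over 250 bases. Matches were counted at any position, so not every TGACG or CCAAT match is an X2 or Y box. Before H2-Q4 the TGACG match (-73) follows an ATTGG match (-79). Before H2-K1 the TGACG match (-41) precedes the ATTGG match (-16). The motifs were chosen with the sequences in view, and a match describes letters, not binding.

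Depth recovered from the steps of the FPKM values ran from 26543345 to 73732243 assigned reads per library, and 14538 genes passed the filter of at least 1 FPKM in at least 3 libraries, the 10 members among them. Of 12 cDC2 markers, 11 averaged at least 1 FPKM in CLP-cDC2 and 12 in each other group. Their summed level was 371 to 435 FPKM in CLP-cDC2, 546 to 719 in CDP-cDC2, 617 to 667 in L-cDC2 and 549.6 to 681 in M-cDC2. Of the 12, 8 were called lower in CLP-cDC2 than in CDP-cDC2, beside 6.12% of all genes. The summed level of 8 monocyte and macrophage markers was 65.3 to 187 FPKM in CLP-cDC2, 502 to 666 in CDP-cDC2, 179 to 185 in L-cDC2 and 344 to 372 in M-cDC2. That of 10 NK cell and innate lymphoid cell markers was 137 to 193 FPKM in CLP-cDC2, 97.0 to 149 in CDP-cDC2, 281 to 378 in L-cDC2 and 58.5 to 96.8 in M-cDC2. Only 5 of these 10 averaged at least 1 FPKM in CLP-cDC2, 2 in CDP-cDC2, 9 in L-cDC2 and 1 in M-cDC2, so some sums rest on few genes. Klrd1 was called higher in CLP-cDC2 than in L-cDC2 and 8 other NK markers lower, beside 4.29% and 6.32% of all genes. B cell markers summed to 75.2 to 82.9 FPKM in CLP-cDC2, 40.6 to 57.8 in CDP-cDC2, 159 to 167 in L-cDC2 and 48.1 to 60.5 in M-cDC2. T cell markers summed to 8.51 to 16.8 FPKM in CLP-cDC2, 2.58 to 5.73 in CDP-cDC2, 38.3 to 51.7 in L-cDC2 and 1.93 to 4.37 in M-cDC2, where Cd3e was listed at 0 in every library. No monocyte or macrophage marker was listed at 0 in all libraries of a group. The third libraries of CDP-cDC2 and of M-cDC2 stood apart from their groups, on the second and the third principal component.

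Class I genes were expressed in all 4 groups, and the order of their levels per length was nearly fixed. Over the 12 libraries B2m averaged 3921 FPKM, H2-D1 1658, H2-K1 848, H2-T23 318, Tapbp 132, Tap1 72.0, Tap2 66.6, H2-Q7 49.7, H2-Q4 14.5 and Nlrc5 3.57 FPKM. From B2m down to Tap1, and from H2-Q7 to H2-Q4, each member exceeded the next in all 12 libraries with no overlap of their ranges. Tap1 exceeded Tap2 in 7 of 12 libraries, Tap2 exceeded H2-Q7 in 9 and H2-Q4 exceeded Nlrc5 in 11, and the ranges of these pairs overlapped.

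**Figure D1:**
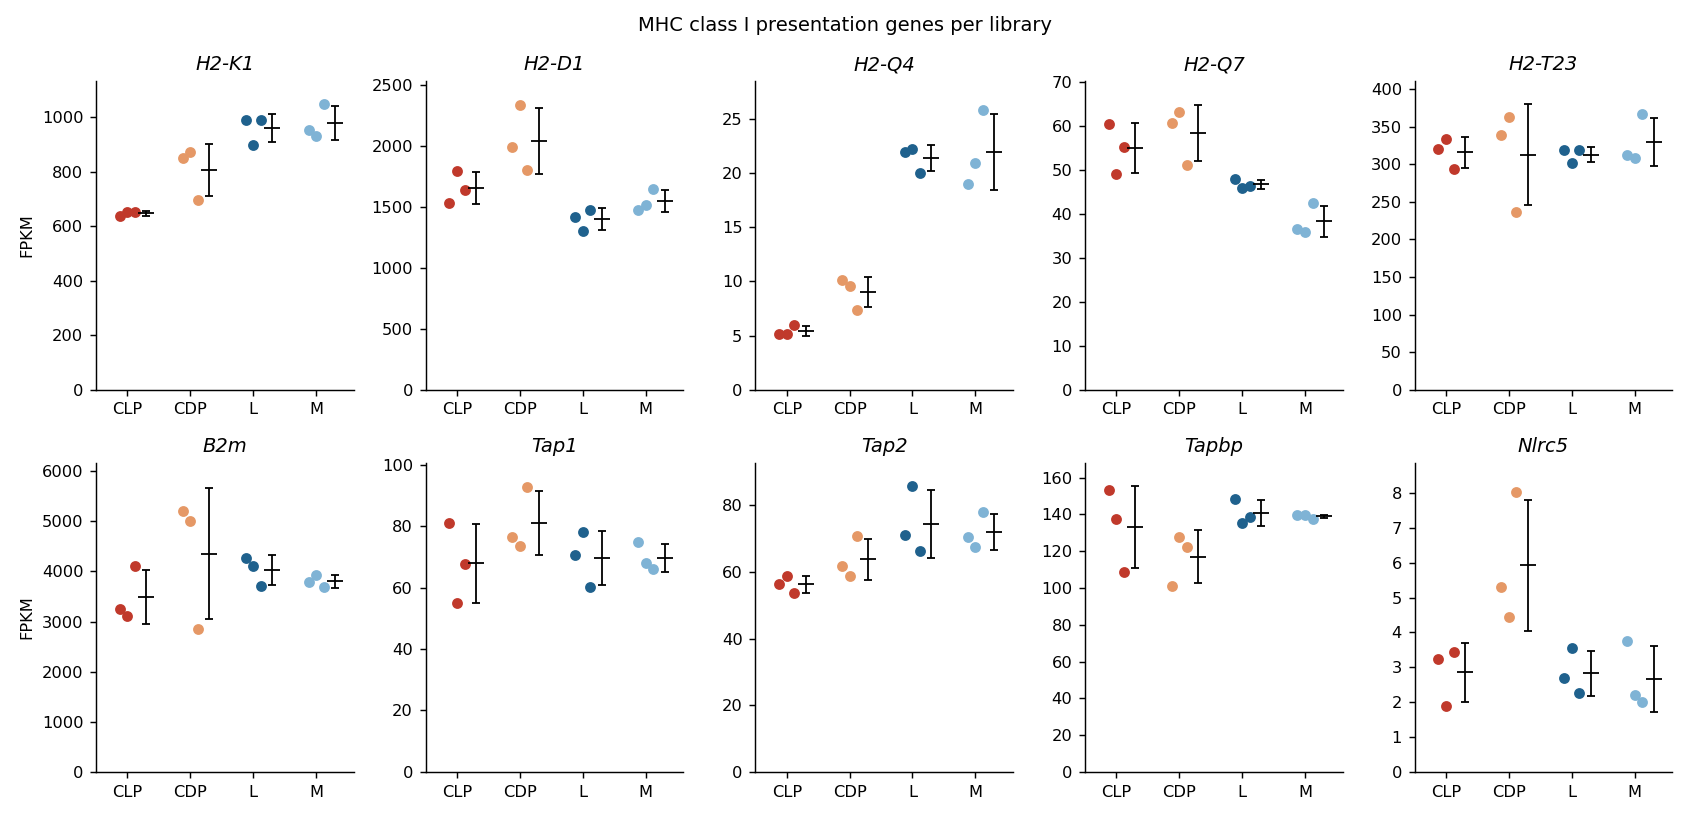
FPKM (y axis, from 0) of the 10 genes in each library of CLP-cDC2, CDP-cDC2, L-cDC2 and M-cDC2. Points are libraries and black marks are group means ± SD (n = 3). H2-Q4 lies between 5.16 and 10.101 FPKM in the transfer libraries, below all L-cDC2 and M-cDC2 libraries, while the groups of H2-T23 overlap.

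In CLP-cDC2 against CDP-cDC2, the progeny of the 2 injected progenitors, H2-Q4 and Nlrc5 were lower in CLP-cDC2 and the other 8 members did not pass the test. These were 2 of 10 members by limma at an adjusted p under 0.05, both lower, where 13.1% of all 14538 genes were called, 6.12% lower and 7.02% higher. The members' median log2 difference was -0.27 and that of all tested genes -0.01. The libraries of the 2 groups did not overlap for 5 members, against 29.7% of all genes.

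In L-cDC2 against M-cDC2, the tdTomato+ and tdTomato- cells of the reporter mice, limma called 0 of 10 members, against 1.73% of all genes (1.29% higher, 0.44% lower). Only H2-Q7, 1 member, had an unadjusted p under 0.05 and groups that did not overlap (19.4% of all genes), and with array weights its adjusted p was 0.014. The members' log2 differences ran from -0.14 (H2-D1) to 0.285 (H2-Q7), with a median of 0.01 beside 0.04 over all genes. The 95% confidence interval of the log2 difference was -0.255 to 0.20 for H2-K1, -0.39 to 0.105 for H2-D1 and -0.345 to 0.505 for B2m. The effect of lineage in the reporter mice less that in the transfer mice was called by limma for 0 of 10 members (5.99% of all genes, 3.61% above 0 and 2.38% below), and 3 members had an unadjusted p under 0.05. With array weights H2-K1, H2-Q4 and H2-Q7 passed that test (0.0139, 0.00833 and 0.0181).

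Across the systems, 2 of 10 members, H2-Q4 and H2-K1, were lower in CLP-cDC2 than in L-cDC2, where 10.6% of all genes were called (6.32% lower, 4.29% higher). In CDP-cDC2 against M-cDC2, H2-Q4 was lower and H2-Q7 higher, where 2.58% of all genes were called (0.956% lower, 1.62% higher). Groups did not overlap for 5 members in CLP-cDC2 against L-cDC2 (35.8% of all genes) and for 6 in CDP-cDC2 against M-cDC2 (24.4%). Injection into marrow, the mouse line and the way lineage was marked all differ between these groups and cannot be told apart. Fewer cells of a type and less RNA per cell cannot be told apart in bulk libraries either.

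**Figure D2:**
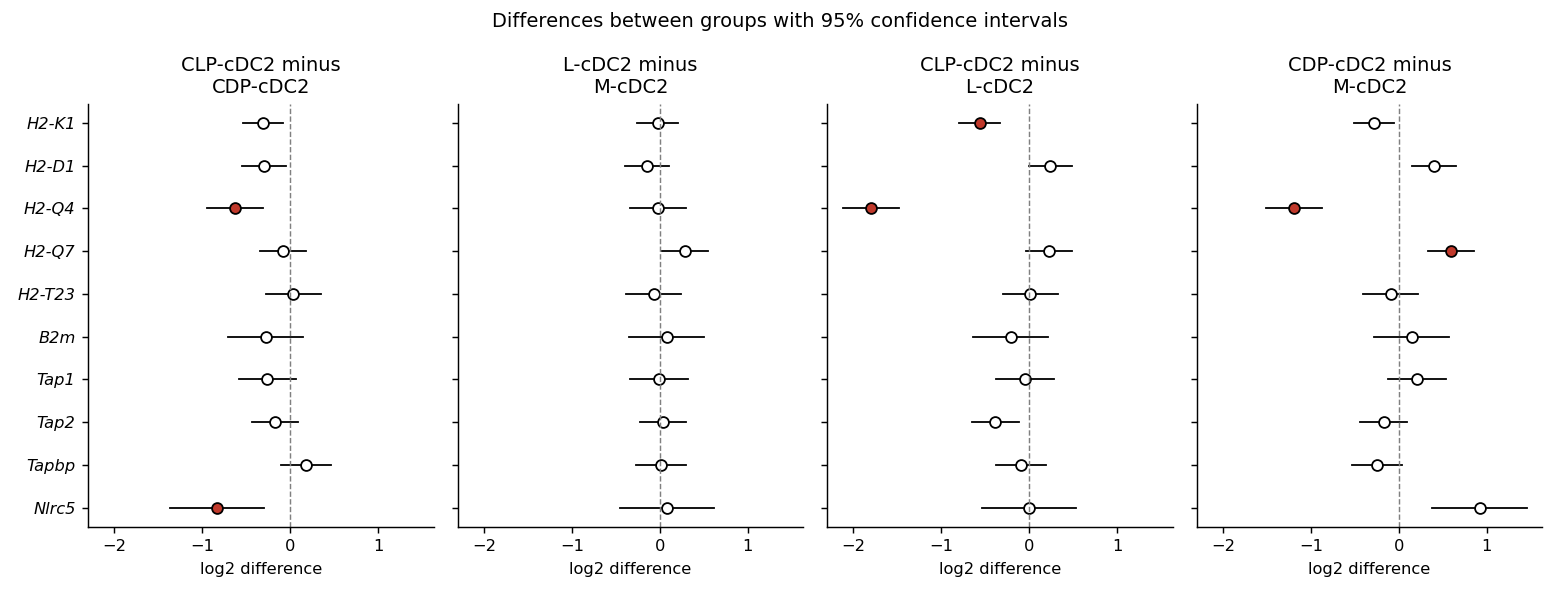
Log2 differences of FPKM + 1 (x axis) for the 10 genes (rows) in 4 comparisons, with 95% confidence intervals of the limma fit. Filled points passed an adjusted p of 0.05. H2-Q4 is filled in 3 panels, and no point is filled in L-cDC2 minus M-cDC2.

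Among the heavy chains, H2-Q4, a nonclassical class I heavy chain of the Q region, had the largest absolute log2 differences of the members across the systems. It measured 5.16, 5.19 and 6.00 FPKM in CLP-cDC2, 10.101, 9.58 and 7.41 in CDP-cDC2, 21.95, 22.3 and 20.1 in L-cDC2, and 19.0, 20.9 and 25.9 in M-cDC2. All CLP-cDC2 libraries were below all CDP-cDC2 libraries, both transfer groups were below both reporter groups, and L-cDC2 overlapped with M-cDC2. The log2 difference was -0.63 ± 0.15 (adjusted p = 0.0161) for CLP-cDC2 minus CDP-cDC2, -1.80 ± 0.15 (1.02e-05) for CLP-cDC2 minus L-cDC2, -1.19 ± 0.15 (0.00165) for CDP-cDC2 minus M-cDC2 and -0.02 ± 0.15 (0.973) for L-cDC2 minus M-cDC2. The first of these calls was lost, with the adjusted p in brackets here and elsewhere, without CLP-cDC2 library 1 (0.0528) or 2 (0.0591) and with only the compared libraries in the fit (0.0756), while both calls across systems held under all 24 alternatives. Of the distinct 50-base stretches of H2-Q4 transcripts, 36.4% also occur in another gene, so its level depends on how shared reads were counted. None of the alternatives changed that counting. The largest share, 15.3%, was with Gm11131, also called lower across systems (-2.87 in CLP-cDC2 minus L-cDC2, -2.33 in CDP-cDC2 minus M-cDC2). Shared stretches made up 23.2% for Tapbp, 14.5% for H2-T23, 12.8% for H2-D1, 11.6% for Tap2 and 9.63% for H2-K1.

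H2-K1 and H2-D1 encode the classical heavy chains K and D, which present peptides to CD8 T cells. H2-K1 measured 638, 653 and 652 FPKM in CLP-cDC2, 851, 872 and 698 in CDP-cDC2, 991, 899 and 989.5 in L-cDC2, and 953, 931 and 1048 in M-cDC2. The CLP-cDC2 libraries were the 3 lowest of all, the CDP-cDC2 libraries came next, and the reporter groups overlapped with each other. H2-K1 was lower in CLP-cDC2 than in L-cDC2 by a log2 difference of -0.57 ± 0.11 (adjusted p = 0.00566), a call that held under all 24 alternatives. CLP-cDC2 minus CDP-cDC2 gave -0.31 ± 0.11 (adjusted p = 0.0731), which passed without CDP-cDC2 library 3 (0.0181), and CDP-cDC2 minus M-cDC2 gave -0.28 ± 0.11 (adjusted p = 0.168). H2-D1 measured 1531, 1788 and 1634 FPKM in CLP-cDC2, 1989, 2334 and 1798 in CDP-cDC2, 1416, 1300.1 and 1475 in L-cDC2, and 1472, 1513 and 1644 in M-cDC2. In H2-D1 each transfer group lay above the reporter group set against it, with no overlap. No H2-D1 difference passed the test, at 0.24 ± 0.115 (adjusted p = 0.2) for CLP-cDC2 minus L-cDC2, 0.40 ± 0.115 (0.0872) for CDP-cDC2 minus M-cDC2 and -0.30 ± 0.115 (0.105) for CLP-cDC2 minus CDP-cDC2. After quantile normalization the last 2 differences passed (0.0326 and 0.0067). The first, CLP-cDC2 minus L-cDC2, ran from -0.05 to 0.29 over 24 alternatives, with the other sign in 1, and passed in none.

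H2-Q7 is a Qa-2 heavy chain, and H2-T23 encodes Qa-1, which presents leader peptides of other class I molecules to receptors of NK cells. H2-Q7 measured 60.5, 49.2 and 55.3 FPKM in CLP-cDC2, 60.8, 63.3 and 51.2 in CDP-cDC2, 48.0, 46.0 and 46.4 in L-cDC2, and 36.7, 35.9 and 42.5 in M-cDC2. M-cDC2 lay below L-cDC2, and L-cDC2 below both transfer groups, without overlap. The log2 difference was 0.59 ± 0.12 (adjusted p = 0.0265) for CDP-cDC2 minus M-cDC2, 0.285 ± 0.12 (0.525) for L-cDC2 minus M-cDC2 and 0.22 ± 0.12 (0.255) for CLP-cDC2 minus L-cDC2. The H2-Q7 call ended without CDP-cDC2 library 1 (0.0635) or 2 (0.0505) or M-cDC2 library 1 (0.0828) or 2 (0.111), and with no filter (0.0726), TMM factors (0.0679) or only the libraries compared (0.127). For H2-Q7 26.5% of its 50-base stretches occur in another gene. H2-T23 measured 320.3, 333 and 293 FPKM in CLP-cDC2, 339, 363 and 236 in CDP-cDC2, 318, 302 and 318 in L-cDC2, and 313, 309 and 366 in M-cDC2. All 4 groups overlapped. The 95% confidence interval of the H2-T23 log2 difference was -0.28 to 0.35 for CLP-cDC2 minus CDP-cDC2 and -0.39 to 0.25 for L-cDC2 minus M-cDC2.

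The make-up of the heavy chains was also compared, a choice made after the values were seen and given without a test. Their summed level was 2675 ± 140.2 FPKM in CLP-cDC2, 3228 ± 427 in CDP-cDC2, 2738 ± 149 in L-cDC2 and 2910.1 ± 188 in M-cDC2 (SD, n = 3 each). The ratio of H2-K1 to H2-D1 averaged 0.394 ± 0.0262 in CLP-cDC2, 0.397 ± 0.0283 in CDP-cDC2, 0.688 ± 0.0149 in L-cDC2 and 0.633 ± 0.0162 in M-cDC2. All 6 transfer libraries were below all 6 reporter libraries in this ratio, and CLP-cDC2 overlapped with CDP-cDC2. H2-Q4 made up 0.204 ± 0.0219% of the sum in CLP-cDC2, 0.280 ± 0.0269% in CDP-cDC2, 0.785 ± 0.0814% in L-cDC2 and 0.751 ± 0.0729% in M-cDC2. B2m stood at 1.31 ± 0.231 times the summed heavy chain level in CLP-cDC2, 1.33 ± 0.295 in CDP-cDC2, 1.48 ± 0.158 in L-cDC2 and 1.31 ± 0.117 in M-cDC2.

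**Figure D3:**
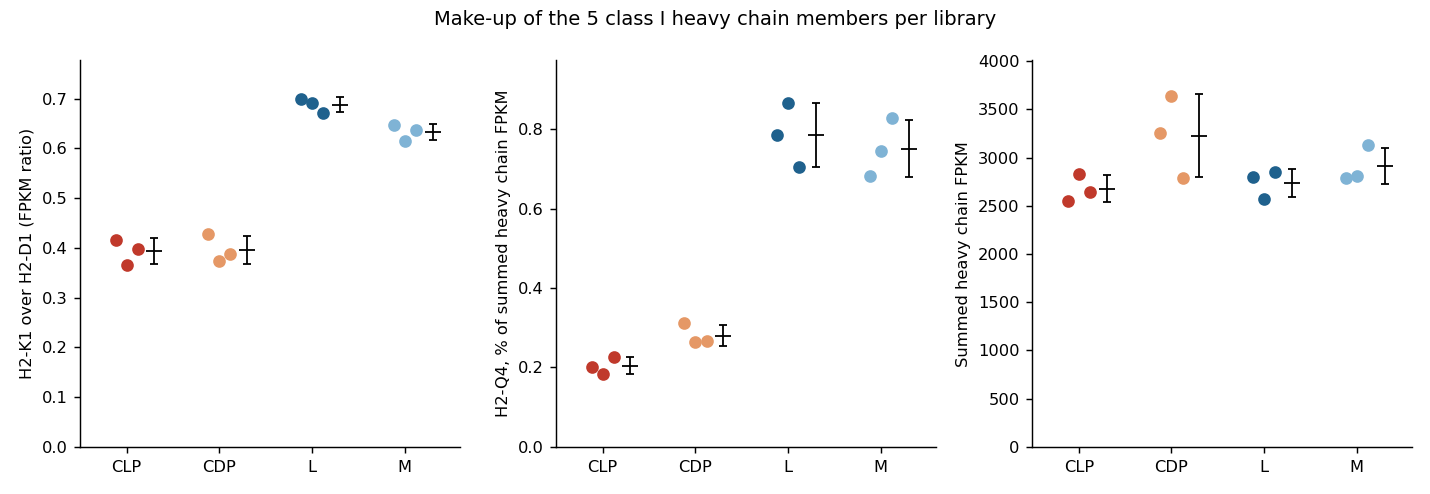
Per library, the FPKM ratio of H2-K1 to H2-D1, the percent of the summed FPKM of the 5 heavy chains that is H2-Q4, and that sum in FPKM, for CLP-cDC2, CDP-cDC2, L-cDC2 and M-cDC2. Points are libraries and black marks are means ± SD (n = 3). The transfer libraries lie below the reporter libraries in the ratio and in the H2-Q4 percent.

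B2m encodes beta-2 microglobulin, the light chain that these heavy chains need to reach the surface. It measured 3252, 3115 and 4117.5 FPKM in CLP-cDC2, 5217, 5009 and 2844 in CDP-cDC2, 4264, 4119 and 3701 in L-cDC2, and 3793, 3936 and 3687 in M-cDC2. The third CDP-cDC2 library was the lowest of all 12 and the other 2 CDP-cDC2 libraries were the highest, so CDP-cDC2 overlapped with every group. The log2 difference of CLP-cDC2 minus CDP-cDC2 was -0.28 ± 0.20 (adjusted p = 0.384), with a 95% confidence interval of -0.70 to 0.15, and it passed the test without CDP-cDC2 library 3 (0.0161). B2m shares no 50-base stretch with another gene.

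Tap1 and Tap2 encode the subunits of the peptide transporter, and Tapbp encodes tapasin, which ties the transporter to empty heavy chains. Tap1 measured 80.9, 55.1 and 67.7 FPKM in CLP-cDC2, 76.4, 73.5 and 92.9 in CDP-cDC2, 70.7, 78.0 and 60.3 in L-cDC2, and 74.8, 67.8 and 66.1 in M-cDC2. The groups of each comparison overlapped, and Tap1 gave -0.26 ± 0.15 (adjusted p = 0.287) for CLP-cDC2 minus CDP-cDC2 and 0.21 ± 0.15 (0.477) for CDP-cDC2 minus M-cDC2. Tap2 measured 56.5, 58.8 and 53.8 FPKM in CLP-cDC2, 61.7, 58.8 and 70.8 in CDP-cDC2, 71.1, 85.8 and 66.2 in L-cDC2, and 70.5, 67.5 and 78.0 in M-cDC2. Each CLP-cDC2 library was below each L-cDC2 library for Tap2. That difference, -0.39 ± 0.12 (adjusted p = 0.0608), passed without CDP-cDC2 library 3 (0.0362) and with protein-coding genes only (0.0438). Tapbp measured 153, 137 and 109 FPKM in CLP-cDC2, 101, 128 and 122 in CDP-cDC2, 148, 135 and 139 in L-cDC2, and 139, 139 and 138 in M-cDC2. CDP-cDC2 lay below M-cDC2 without overlap, at a log2 difference of -0.25 ± 0.13 (adjusted p = 0.304).

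Nlrc5, a nuclear NOD-like receptor that drives class I promoters, was the least abundant member and the one with the largest absolute log2 difference between CLP-cDC2 and CDP-cDC2. It measured 3.25, 1.88 and 3.43 FPKM in CLP-cDC2, 5.29, 4.45 and 8.03 in CDP-cDC2, 2.69, 3.54 and 2.27 in L-cDC2, and 3.74, 2.21 and 2.02 in M-cDC2. The CDP-cDC2 libraries were the 3 highest of all, and the other groups overlapped. The log2 difference was -0.84 ± 0.25 (adjusted p = 0.0432) for CLP-cDC2 minus CDP-cDC2 and 0.92 ± 0.25 (0.0682) for CDP-cDC2 minus M-cDC2. The call in CLP-cDC2 minus CDP-cDC2 ended without CLP-cDC2 library 1 (0.067) or 2 (0.17) or 3 (0.0514), CDP-cDC2 library 1 (0.0609) or 3 (0.14), L-cDC2 library 1 (0.0585) or 3 (0.054) or M-cDC2 library 2 (0.0589), and with no filter (0.155), only the libraries compared (0.091) or array weights (0.0825). The difference from M-cDC2 passed without CDP-cDC2 library 2 (0.0491). Summed monocyte and macrophage and cDC2 markers were lower in CLP-cDC2 than in CDP-cDC2, as Nlrc5 was. Nlrc5 averaged 2.85 FPKM in CLP-cDC2, 2.83 in L-cDC2 and 2.66 in M-cDC2. In these groups monocyte and macrophage markers summed to 65.3 to 187, 179 to 185 and 344 to 372 FPKM. Their cDC2 markers summed to 371 to 435, 617 to 667 and 549.6 to 681 FPKM. The part of these markers in the values of Nlrc5 and the other members was not tested.

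Along the MHC region, calls across systems made up a larger share of genes than elsewhere. Of 170 tested genes on chromosome 17 from Tapbp to H2-M2, 20.6% were called in CLP-cDC2 minus L-cDC2 and 15.9% in CDP-cDC2 minus M-cDC2, against 10.5% and 2.42% of the 14368 genes elsewhere. Within a system the shares were 15.9% in the region and 13.1% elsewhere for CLP-cDC2 minus CDP-cDC2, and 1.18% and 1.74% for L-cDC2 minus M-cDC2. Neighbouring genes are not independent, and the shares are given without a test. H2-Ea encodes the alpha chain of the class II molecule E, and its transcript is known to be missing in mice of the H-2b haplotype such as C57BL/6. It measured 0.568, 0.804 and 0.909 FPKM in CLP-cDC2, 1.48, 0.628 and 0.662 in CDP-cDC2, 402, 409.9 and 445 in L-cDC2, and 494, 509 and 459.6 in M-cDC2. Every reporter library was above every transfer library. The log2 difference was -7.90 ± 0.16 (adjusted p = 9.33e-12) for CLP-cDC2 minus L-cDC2 and -8.015 ± 0.16 (7.79e-12) for CDP-cDC2 minus M-cDC2. The labels give no MHC haplotype for the reporter line, and the part of haplotype in the values of H2-K1, H2-D1, H2-Q4 and H2-Q7 was not tested.

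**Figure D4:**
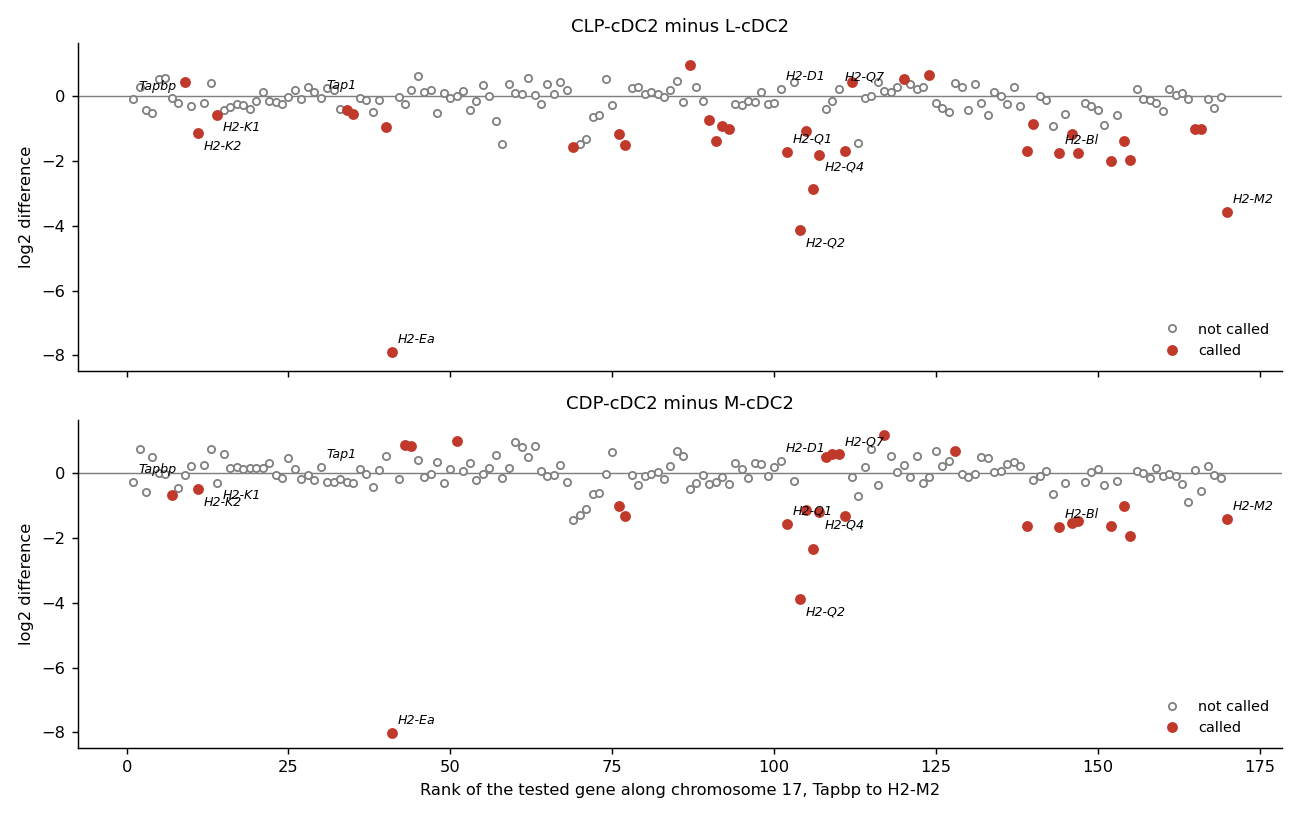
Log2 difference of FPKM + 1 (y axis) of the 170 tested genes from Tapbp to H2-M2, in their order along chromosome 17 (x axis, rank), for CLP-cDC2 minus L-cDC2 (top) and for CDP-cDC2 minus M-cDC2 (bottom). Filled points passed an adjusted p of 0.05, and H2-Ea lies at -7.90 and -8.015.

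Of the other class I heavy chains and class I-like genes, 20 were tested. In CLP-cDC2 minus L-cDC2 0 were called higher and 10 lower, beside 4.29% and 6.32% of all genes. In CDP-cDC2 minus M-cDC2 2 were higher and 7 lower, beside 1.62% and 0.956%. In CLP-cDC2 minus CDP-cDC2 0 were higher and 6 lower, beside 7.02% and 6.12%. In L-cDC2 minus M-cDC2 0 were higher and 1 lower, beside 1.29% and 0.44%. H2-Q2, a Q region heavy chain, averaged 0.960 ± 0.0434 FPKM in CLP-cDC2, 1.46 ± 0.242 in CDP-cDC2, 33.6 ± 3.08 in L-cDC2 and 35.5 ± 3.26 in M-cDC2 (SD, n = 3 each). It was lower in both transfer groups, at a log2 difference of -4.14 ± 0.13 (adjusted p = 2.01e-09) for CLP-cDC2 minus L-cDC2 and -3.89 ± 0.13 (adjusted p = 4.3e-09) for CDP-cDC2 minus M-cDC2. H2-Q1 gave -1.71 ± 0.16 (adjusted p = 3.17e-05) and -1.56 ± 0.16 (adjusted p = 0.000383) in the same comparisons. H2-K2, annotated as a transcribed pseudogene, gave -1.15 ± 0.11 (adjusted p = 3.23e-05) and -0.49 ± 0.11 (adjusted p = 0.0362), and -0.64 ± 0.11 (adjusted p = 0.00266) in CLP-cDC2 against CDP-cDC2. H2-Q6, a Qa-2 heavy chain like H2-Q7, was higher in CDP-cDC2 than in M-cDC2 by 0.60 ± 0.10 (adjusted p = 0.0114), a call that ended without M-cDC2 library 1 (0.0507) or 2 (0.0662).

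Class I-like genes also differed between the transfer groups. H2-M2, a class I-like gene at the far end of the region, measured 0.0380, 0.523 and 0.0152 FPKM in CLP-cDC2, 2.38, 5.42 and 4.18 in CDP-cDC2, 16.3, 13.2 and 10.2 in L-cDC2, and 13.8, 12.6 and 9.69 in M-cDC2. Its CLP-cDC2 libraries were below all others, and its reporter groups overlapped. The log2 difference was -2.04 ± 0.255 (adjusted p = 0.00051) for CLP-cDC2 minus CDP-cDC2 and -3.58 ± 0.255 (3.52e-06) for CLP-cDC2 minus L-cDC2. Hfe, the class I-like partner of the transferrin receptor in iron sensing, measured 13.3, 21.7 and 23.3 FPKM in CLP-cDC2 and 54.0, 51.3 and 43.7 in CDP-cDC2. The groups did not overlap, and Hfe was lower in CLP-cDC2 by a log2 difference of -1.34 ± 0.18 (adjusted p = 0.000727), while L-cDC2 minus M-cDC2 gave -0.43 ± 0.18 (adjusted p = 0.508). Fcgrt, the neonatal Fc receptor, which recycles IgG and albumin and pairs with beta-2 microglobulin, was called lower in both lineage comparisons. It measured 22.99, 28.9 and 27.5 FPKM in CLP-cDC2, 43.6, 48.1 and 36.9 in CDP-cDC2, 26.0, 23.3 and 22.01 in L-cDC2, and 36.0, 39.3 and 37.4 in M-cDC2. Neither pair overlapped. The log2 difference was -0.675 ± 0.13 (adjusted p = 0.00571) for CLP-cDC2 minus CDP-cDC2 and -0.64 ± 0.13 (0.0204) for L-cDC2 minus M-cDC2, and the difference between these effects was 0.03 ± 0.18 (adjusted p = 0.932). The call in the reporter mice ended without L-cDC2 library 1 (0.0618) or 2 (0.145) or 3 (0.171) or M-cDC2 library 1 (0.0628) or 2 (0.122) or 3 (0.0717). The summed level of monocyte and macrophage markers was lower in CLP-cDC2 than in CDP-cDC2 and in L-cDC2 than in M-cDC2. In CLP-cDC2 minus CDP-cDC2, 5 of 7 tested markers were called lower (6.12% of all genes), with a list median of -1.86. In L-cDC2 minus M-cDC2 only 2 of 7 were, Lyz2 and Cd14 (0.44% of all genes), with a list median of -0.05. The part of these markers in the Hfe and Fcgrt values was not tested.

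H2-M3, which presents formylated bacterial peptides, averaged 155 ± 9.20 FPKM in CLP-cDC2, 144 ± 11.2 in CDP-cDC2, 156 ± 7.88 in L-cDC2 and 158 ± 6.73 in M-cDC2. H2-T22, a ligand of some gamma delta T cells, averaged 29.6 ± 1.17 FPKM in CLP-cDC2, 31.3 ± 1.21 in CDP-cDC2, 32.3 ± 2.62 in L-cDC2 and 29.9 ± 3.29 in M-cDC2. Neither passed in any comparison, nor did Cd1d1, which presents lipids to NKT cells (21.6 to 33.9 FPKM over the 12 libraries). Mr1, which presents vitamin B metabolites to MAIT cells, was at 0.118 to 0.790 FPKM and did not pass the filter on low values.

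The immunoproteasome subunits Psmb8, Psmb9 and Psmb10 averaged 234, 206 and 186 FPKM over the 12 libraries, and the PA28 activator subunits Psme1 and Psme2 averaged 251 and 378 FPKM. None of these 5 genes passed in any comparison of all 12 libraries, and Psme2 passed in CLP-cDC2 minus CDP-cDC2 without CDP-cDC2 library 1 (0.0237) and with array weights (0.0447). Of the 8 genes of that list only Pomp, the proteasome maturation protein, was called, in CLP-cDC2 minus L-cDC2 at 0.405 ± 0.11 (adjusted p = 0.0419), and this ended without CLP-cDC2 library 1 (0.101) or 2 (0.121) or 3 (0.0623), CDP-cDC2 library 2 (0.0516), L-cDC2 library 1 (0.0666) or 2 (0.182) or 3 (0.0836) or M-cDC2 library 1 (0.0581) or 2 (0.0613). In the standard proteasome core 4 of 14 genes were higher in CLP-cDC2 than in CDP-cDC2 and 0 lower, where 7.02% of all genes were higher, with a list median of 0.38. The core subunit genes Psma5 and Psmb2 gave 0.54 ± 0.11 (adjusted p = 0.0091) and 0.45 ± 0.11 (adjusted p = 0.0179). The Psmb2 call ended without CLP-cDC2 library 2 (0.0725) or CDP-cDC2 library 3 (0.0503), and after quantile normalization neither gene passed (0.0914 and 0.0924). Of the 14 core genes 12 had an unadjusted p under 0.05 in CLP-cDC2 minus CDP-cDC2. In CLP-cDC2 minus L-cDC2 limma called only Psma5, at 0.46 ± 0.11 (adjusted p = 0.0236), which ended without CLP-cDC2 library 1 (0.078) or 2 (0.0612) or L-cDC2 library 2 (0.12) or 3 (0.0634), and 11 core genes had an unadjusted p under 0.05. In L-cDC2 minus M-cDC2 limma called 0, with 2 at an unadjusted p under 0.05, and in CDP-cDC2 minus M-cDC2 also 0, with 3. For the difference of lineage effects 3 were called, all below 0, and 12 had an unadjusted p under 0.05.

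In the loading complex and the folding machinery of the endoplasmic reticulum, 3 of 16 genes were higher in CLP-cDC2 than in CDP-cDC2, beside 7.02% of all genes. In L-cDC2 minus M-cDC2 limma called 0 of these 16 (1 at an unadjusted p under 0.05), beside 1.73% of all genes. Pdia3, which encodes Erp57 of the loading complex, measured 304, 323 and 283 FPKM in CLP-cDC2, 226, 223 and 182 in CDP-cDC2, 271, 234 and 243 in L-cDC2, and 299, 327 and 256 in M-cDC2. Its CLP-cDC2 libraries lay above its CDP-cDC2 libraries without overlap. Pdia3 gave 0.53 ± 0.12 (adjusted p = 0.015), a call that ended without CLP-cDC2 library 2 (0.0653). Pdia6, another disulfide isomerase, gave 0.52 ± 0.15 (adjusted p = 0.0389), which ended without CLP-cDC2 library 1 (0.0874) or 2 (0.159), CDP-cDC2 library 2 (0.081) or 3 (0.119), L-cDC2 library 1 (0.0537) or 3 (0.0561) or M-cDC2 library 1 (0.0537) or 2 (0.0578). Bcap31, a sorting receptor of the endoplasmic reticulum, gave 0.44 ± 0.12 (adjusted p = 0.0342), which ended without CLP-cDC2 library 1 (0.0743) or 2 (0.143), CDP-cDC2 library 3 (0.101), L-cDC2 library 1 (0.0502) or 3 (0.0507) or M-cDC2 library 2 (0.0531). After quantile normalization none of the 3 passed (Pdia3 0.0984, Pdia6 0.112 and Bcap31 0.108), and the log2 difference of Bcap31 was then 0.24. Calreticulin (Calr, 57.4 to 99.2 FPKM), calnexin (Canx, 28.5 to 53.9), the peptide trimming enzyme Erap1 (3.72 to 9.76) and the tapasin relative Tapbpl (34.7 to 51.8) passed in no comparison of all 12 libraries, and Tapbpl passed in CLP-cDC2 minus CDP-cDC2 without CLP-cDC2 library 3 (0.0479). Of 8 cytosolic peptidases 2, both of which can trim class I peptides, were higher in CLP-cDC2 than in CDP-cDC2, beside 7.02% of all genes. Blmh gave 0.59 ± 0.13 (adjusted p = 0.0135), which ended without CLP-cDC2 library 2 (0.0635). Thop1 gave 0.66 ± 0.185 (adjusted p = 0.0357), which ended without CLP-cDC2 library 1 (0.111) or 2 (0.086), CDP-cDC2 library 1 (0.0602) or 2 (0.106) or M-cDC2 library 2 (0.0516).

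**Figure D5:**
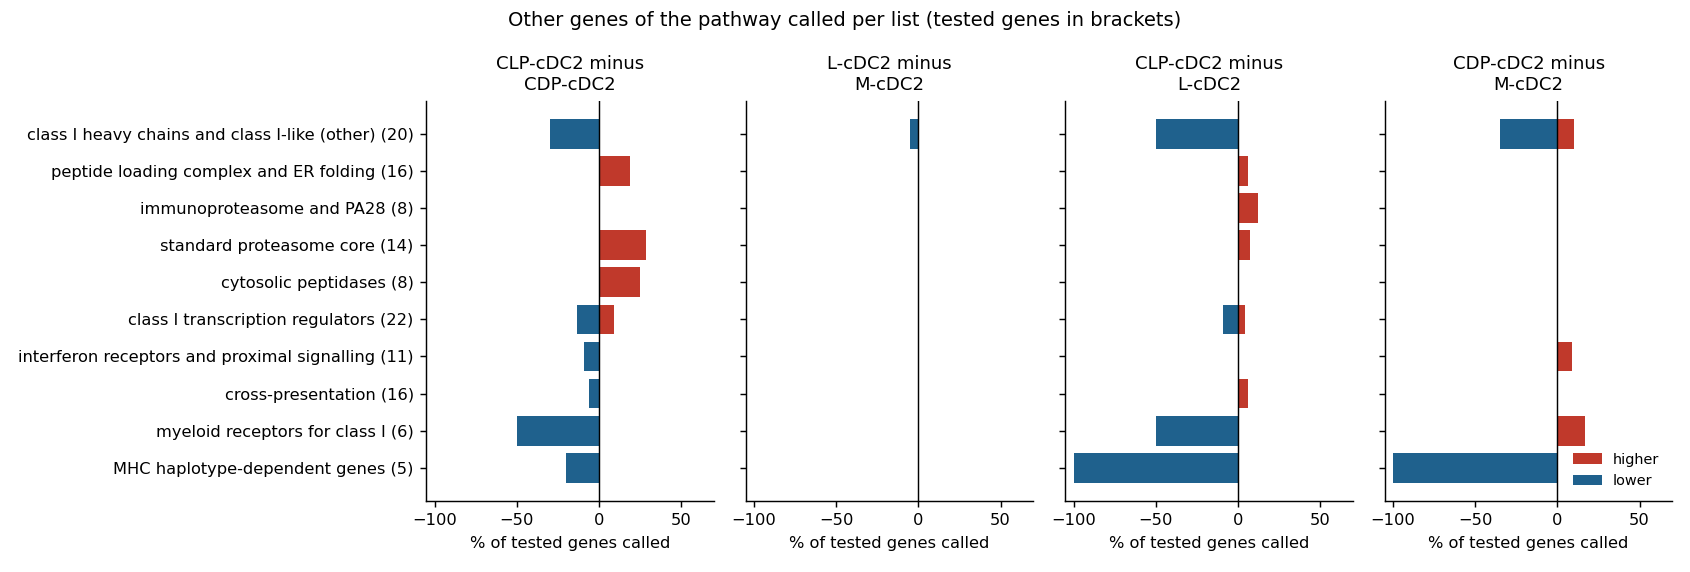
Percent of the tested genes of each list (rows, number tested in brackets) called higher (right of 0) or lower (left of 0) by limma in 4 comparisons. In L-cDC2 minus M-cDC2 only the list of other class I genes has a called gene, while in CLP-cDC2 minus CDP-cDC2 the proteasome core, loading and peptidase lists have calls to the right.

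Of 22 tested regulators of class I transcription, 2 were higher and 3 lower in CLP-cDC2 than in CDP-cDC2, beside 7.02% and 6.12% of all genes. In L-cDC2 minus M-cDC2 and in CDP-cDC2 minus M-cDC2 limma called 0 of them (1 and 7 at an unadjusted p under 0.05). Relb, an NF-kB subunit of dendritic cell maturation, measured 53.9, 50.7 and 55.8 FPKM in CLP-cDC2, 91.8, 126 and 119 in CDP-cDC2, 115, 124 and 119 in L-cDC2, and 119, 115 and 118 in M-cDC2. The CLP-cDC2 libraries were the 3 lowest, below all other groups. Relb was lower in CLP-cDC2, with a log2 difference of -1.05 ± 0.12 (adjusted p = 0.000281) against CDP-cDC2 and -1.14 ± 0.12 (adjusted p = 7.18e-05) against L-cDC2, calls that held under all 24 alternatives. Rfxap, a subunit of the RFX complex with which NLRC5 acts, gave -1.14 ± 0.28 (adjusted p = 0.0184) in CLP-cDC2 minus CDP-cDC2, which ended without CLP-cDC2 library 1 (0.0504) or 2 (0.0509) or CDP-cDC2 library 2 (0.054) or 3 (0.0503). Irf7, an interferon regulatory factor, gave -0.53 ± 0.14 (adjusted p = 0.028), which ended without CLP-cDC2 library 1 (0.0791) or 2 (0.113) or CDP-cDC2 library 2 (0.0795) or 3 (0.0843). Irf1 (47.2 to 73.2 FPKM), Rfx5 (2.17 to 6.70) and the class II regulator Ciita (52.1 to 97.3) passed in no comparison of all 12 libraries. In CLP-cDC2 minus CDP-cDC2, Irf1 passed without CDP-cDC2 library 3 (0.0299) and Ciita without L-cDC2 library 2 (0.0279). Among 11 interferon receptor and signalling genes, Ifngr2, the signalling chain of the interferon gamma receptor, averaged 45.15 ± 3.23 FPKM in CLP-cDC2 and 65.6 ± 6.20 in CDP-cDC2 and was lower in CLP-cDC2 by a log2 difference of -0.53 ± 0.10 (adjusted p = 0.00635). Jak2, the kinase bound to that chain, gave 1.05 ± 0.23 (adjusted p = 0.0366) in CDP-cDC2 minus M-cDC2, which ended without CDP-cDC2 library 1 (0.0553) or 3 (0.0943), L-cDC2 library 1 (0.0558) or 2 (0.0519) or 3 (0.057) or M-cDC2 library 1 (0.0642) or 2 (0.0795) or 3 (0.138).

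Of 16 genes of cross-presentation, the display of captured antigen on class I, 1 was lower in CLP-cDC2 than in CDP-cDC2, beside 6.12% of all genes. That gene, Rab43, gave -0.90 ± 0.25 (adjusted p = 0.0358), which ended without CLP-cDC2 library 1 (0.0558) or 2 (0.138) or 3 (0.0638) or CDP-cDC2 library 3 (0.117). Ifi30, a lysosomal thiol reductase, was the 1 called gene of the list in CLP-cDC2 minus L-cDC2, at 0.61 ± 0.17 (adjusted p = 0.0425), which ended without CLP-cDC2 library 1 (0.125) or 2 (0.0678) or 3 (0.0952), CDP-cDC2 library 2 (0.0517), L-cDC2 library 1 (0.0692) or 2 (0.157) or 3 (0.107) or M-cDC2 library 1 (0.0583) or 2 (0.0596). Wdfy4, required for cross-presentation by cDC1, measured 44.5 to 50.8 FPKM in CLP-cDC2, 35.6 to 70.5 in CDP-cDC2, 34.7 to 38.2 in L-cDC2 and 29.6 to 32.0 in M-cDC2 and passed in no comparison of all 12 libraries. It passed in CLP-cDC2 minus L-cDC2 without CDP-cDC2 library 3 (0.0397) and in CDP-cDC2 minus M-cDC2 without CDP-cDC2 library 2 (0.0144). Summed cDC1 markers were 186 to 239 FPKM in CLP-cDC2, 111 to 173 in CDP-cDC2, 126 to 151 in L-cDC2 and 236 to 259.6 in M-cDC2, and their part in these values was not tested.

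A further list held myeloid receptors for class I and relatives of such receptors, and not every member is known to bind class I. In it, 3 of 6 tested genes were lower and 0 higher in CLP-cDC2 than in CDP-cDC2. Of all genes 6.12% were lower and 7.02% higher. Lilrb4a, an inhibitory receptor of the leukocyte immunoglobulin-like family, measured 1.1997, 1.73 and 2.06 FPKM in CLP-cDC2, 9.52, 5.70 and 14.5 in CDP-cDC2, 5.02, 5.30 and 3.86 in L-cDC2, and 6.04, 5.37 and 4.15 in M-cDC2. The CLP-cDC2 libraries were the 3 lowest, and the reporter groups overlapped. In CLP-cDC2 against CDP-cDC2, Lilrb4a was lower by a log2 difference of -1.96 ± 0.26 (adjusted p = 0.000749) and the related Lilr4b by -1.77 ± 0.22 (adjusted p = 0.000476). Pirb, an inhibitory receptor for class I, gave -0.52 ± 0.115 (adjusted p = 0.0119), which ended without CLP-cDC2 library 2 (0.0578). In L-cDC2 minus M-cDC2 limma called 0 of the 6, with 0 at an unadjusted p under 0.05. How reads were split between Lilrb4a and Lilr4b was not tested. In CLP-cDC2 minus CDP-cDC2 the calls of Psmb2, Pdia3, Pdia6, Bcap31, Blmh, Thop1, Rfxap, Irf7, Ifngr2, Rab43 and Pirb also ended with only the compared libraries in the fit (adjusted p of 0.0574 to 0.135), and those of Pdia3, Pdia6, Bcap31, Thop1, Rfxap, Irf7 and Rab43 with no filter on low values (0.0503 to 0.149).

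The genes most like a member over the 12 libraries were named by Pearson's r of log2(FPKM + 1), as a description without a test, and all values share the libraries and their depths. H2-K1 was most like Icam1 (0.952), an adhesion molecule of T cell contact, Cd52 (0.951) and the costimulatory receptor gene Cd40 (0.929), and its r was 0.95 with H2-Q4 and -0.25 with H2-D1. B2m was most like Lst1 (0.876), Igtp (0.811) and Phkg2 (0.797). Tap1 was most like Cacfd1 (0.929), Acox3 (0.892) and Etv6 (0.891), and its r with Nlrc5 was 0.846. Nlrc5 was most like Slc43a2 (0.961), Casc3 (0.944) and Shtn1 (0.943), and its r with B2m was 0.073.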

How the data were processed

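RNA from sorted splenic cDC2 was made into SMART-Seq HT and Nextera XT libraries, per the labels' protocols. The authors deposited 1 table of FPKM for 55322 genes. The submitters' processing notes list featureCounts 2.0.1, STAR 2.7.9a, DESeq2 1.20.0, and the trimmers cutadapt 3.7, Trimmomatic 0.39 and Trim Galore 0.6.7, without saying how each was used. Read length and the use of strand are not given in the sources used here. The processing notes name the builds GRCh38 and GRCm38, without saying which of them the deposited coordinates follow. The deposited positions of the members do not match the GRCm38.p6 promoter windows shown above, so no deposited coordinates are printed. Reads recovered from the FPKM steps were whole for 44.8 to 53.2% of genes above 0 (tolerance 0.005 read), so no count test was run.

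Genes at 1 FPKM or more in 3 or more libraries (14538, of which 10113 protein-coding) were fitted as log2(FPKM + 1) with limma 3.58.1 in R 4.3.3 (group means of all 12 libraries, 8 residual degrees of freedom, eBayes with trend, two-sided). P-values were adjusted by Benjamini and Hochberg's method across the tested genes of each comparison and called under 0.05, and errors after ± of a log2 difference are SE. The pseudocount understates fold changes of low genes. The fit was tested on simulated data. Library numbers in the text are the replicate numbers of the labels.

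The members and all lists were chosen with earlier results of these data known. Genes named were the members, up to 3 called genes per list and comparison, a fixed set by name, and for 4 members the 3 genes of at least 5 FPKM with the highest correlation. One gene of the set is not reported here. List counts and medians are given in place of set tests. Sequence sharing was counted as exact 50-base stretches of GENCODE M21 transcripts. Alternatives were pseudocounts of 0.1 and 5, no filter, a filter of 5 FPKM, quantile normalization, TMM factors, only the libraries compared, array weights, a replicate block, no trend, protein-coding genes only and each library left out, and, chosen after seeing the data, library 3 of CDP-cDC2 and of M-cDC2 left out together.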

Additional observations from a re-analysis of the deposited data

Results flagged for a closer look

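For 13 genes of the lists the effect of lineage differed between the systems, by limma's test of L-cDC2 minus M-cDC2 less CLP-cDC2 minus CDP-cDC2, where 5.99% of all genes were called. H2-K2, the pseudogene, differed by 0.65 on the log2 scale (adjusted p = 0.0283), with 0.01 in L-cDC2 minus M-cDC2 and -0.64 in CLP-cDC2 minus CDP-cDC2, and this call ended without CLP-cDC2 library 1 (0.0532) or 2 (0.0526) or 3 (0.0528), CDP-cDC2 library 2 (0.0551), L-cDC2 library 1 (0.0616) or 2 (0.0726) or 3 (0.0757) or M-cDC2 library 1 (0.0647) or 2 (0.0736). H2-M2, the class I-like gene, differed by 2.16 on the log2 scale (adjusted p = 0.00613), with 0.12 in L-cDC2 minus M-cDC2 and -2.04 in CLP-cDC2 minus CDP-cDC2. H2-Q5, the Q region gene, differed by 0.89 on the log2 scale (adjusted p = 0.0112), with 0.34 in L-cDC2 minus M-cDC2 and -0.55 in CLP-cDC2 minus CDP-cDC2. H2-Q6, the Qa-2 gene, differed by 0.74 on the log2 scale (adjusted p = 0.0145), with 0.37 in L-cDC2 minus M-cDC2 and -0.37 in CLP-cDC2 minus CDP-cDC2, and this call ended without L-cDC2 library 2 (0.0546). Ifngr2, the interferon gamma receptor chain, differed by 0.55 on the log2 scale (adjusted p = 0.0465), with 0.02 in L-cDC2 minus M-cDC2 and -0.53 in CLP-cDC2 minus CDP-cDC2, and this call ended without CLP-cDC2 library 1 (0.062) or 2 (0.0852) or 3 (0.0832), CDP-cDC2 library 2 (0.0608) or 3 (0.0763), L-cDC2 library 1 (0.101) or 2 (0.115) or 3 (0.0896) or M-cDC2 library 1 (0.0775) or 2 (0.105) or 3 (0.0808). Lap3, the aminopeptidase, differed by -0.80 on the log2 scale (adjusted p = 0.0315), with -0.38 in L-cDC2 minus M-cDC2 and 0.42 in CLP-cDC2 minus CDP-cDC2, and this call ended without CLP-cDC2 library 2 (0.0752) or 3 (0.0594), CDP-cDC2 library 2 (0.0569) or 3 (0.0555), L-cDC2 library 1 (0.0776) or 2 (0.0819) or 3 (0.063) or M-cDC2 library 2 (0.0841) or 3 (0.0584). Lilr4b, the leukocyte receptor, differed by 1.87 on the log2 scale (adjusted p = 0.00595), with 0.09 in L-cDC2 minus M-cDC2 and -1.77 in CLP-cDC2 minus CDP-cDC2. Lilrb4a, the leukocyte receptor, differed by 1.855 on the log2 scale (adjusted p = 0.0155), with -0.11 in L-cDC2 minus M-cDC2 and -1.96 in CLP-cDC2 minus CDP-cDC2, and this call ended without L-cDC2 library 2 (0.0572). Pdia3, Erp57, differed by -0.76 on the log2 scale (adjusted p = 0.0262), with -0.23 in L-cDC2 minus M-cDC2 and 0.53 in CLP-cDC2 minus CDP-cDC2, and this call ended without CLP-cDC2 library 1 (0.0548) or 2 (0.0671), L-cDC2 library 2 (0.082) or 3 (0.0671) or M-cDC2 library 1 (0.0545) or 2 (0.0731). Psma5, a proteasome core subunit, differed by -0.67 on the log2 scale (adjusted p = 0.0312), with -0.13 in L-cDC2 minus M-cDC2 and 0.54 in CLP-cDC2 minus CDP-cDC2, and this call ended without CLP-cDC2 library 1 (0.0652) or 2 (0.0681), CDP-cDC2 library 2 (0.0586), L-cDC2 library 2 (0.0863) or 3 (0.068) or M-cDC2 library 1 (0.06) or 2 (0.0841). Psma6, a proteasome core subunit, differed by -0.71 on the log2 scale (adjusted p = 0.0455), with -0.29 in L-cDC2 minus M-cDC2 and 0.42 in CLP-cDC2 minus CDP-cDC2, and this call ended without CLP-cDC2 library 2 (0.109) or 3 (0.0718), CDP-cDC2 library 2 (0.0585) or 3 (0.0793), L-cDC2 library 1 (0.0581) or 2 (0.125) or 3 (0.0809) or M-cDC2 library 1 (0.0868) or 2 (0.101) or 3 (0.062). Psma7, a proteasome core subunit, differed by -0.605 on the log2 scale (adjusted p = 0.0313), with -0.25 in L-cDC2 minus M-cDC2 and 0.35 in CLP-cDC2 minus CDP-cDC2, and this call ended without CLP-cDC2 library 1 (0.0628) or 2 (0.0644) or 3 (0.0524), CDP-cDC2 library 2 (0.0551), L-cDC2 library 1 (0.072) or 2 (0.0935) or 3 (0.0667) or M-cDC2 library 2 (0.0807) or 3 (0.0654). Relb, the NF-kB subunit, differed by 1.07 on the log2 scale (adjusted p = 0.00453), with 0.02 in L-cDC2 minus M-cDC2 and -1.05 in CLP-cDC2 minus CDP-cDC2. After quantile normalization Pdia3 (0.135), Psma5 (0.156), Psma6 (0.103) and Psma7 (0.0723) did not pass this test. TMM factors ended the calls of H2-K2 (0.0857) and Ifngr2 (0.146). With no filter H2-K2 (0.0565), Ifngr2 (0.0677), Lap3 (0.0692), Lilrb4a (0.0743), Pdia3 (0.0835), Psma5 (0.0808), Psma6 (0.133) and Psma7 (0.0629) did not pass. A replicate block or no trend also ended some of these calls.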

How the results depend on the processing

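The number of members called in CLP-cDC2 minus CDP-cDC2 was 2, but 1 with no filter or with a filter of 5 FPKM, 4 with quantile normalization or array weights, 0 with only the libraries compared, 0 to 3 with 1 library left out in turn, and 4 without library 3 of CDP-cDC2 and of M-cDC2 together, an alternative chosen after seeing the data. In L-cDC2 minus M-cDC2 it was 0, and 1 with array weights. For the difference of lineage effects it was 0, with 1 under quantile normalization, 3 under array weights and 1 without those libraries. In CDP-cDC2 minus M-cDC2 it was 2, but 1 with no filter, TMM factors or only the libraries compared, 3 with quantile normalization or protein-coding genes only, 4 with array weights, and 1 to 2 with 1 library left out. In CLP-cDC2 minus L-cDC2 it was 2 to 3 throughout. The causes were not tested. Same-numbered libraries showed no steady pairing (correlations of deviations from -0.435 to 0.282). Libraries 2 and 3 of CLP-cDC2 were most like the same numbers of CDP-cDC2 (0.282 and 0.0853), and no other pair matched so. With the replicate number as a block the counts were 0 in L-cDC2 minus M-cDC2, 1 in CLP-cDC2 minus CDP-cDC2 and 0 for the difference. They were 2 in CLP-cDC2 minus L-cDC2 and 1 in CDP-cDC2 minus M-cDC2. Over single genes and alternatives, 4038 values stayed called or stayed uncalled, 350 lost and 52 gained a call. Of the values called in either fit, 0 changed direction. Uncalled values did change sign, such as H2-K1 in L-cDC2 minus M-cDC2 and H2-T23 in CLP-cDC2 minus CDP-cDC2, each under 5 of 24 alternatives. Of all genes tested, the counts called, with their lowest and highest over the alternatives, were 188 higher (78 to 538) and 64 lower (18 to 300) in L-cDC2 minus M-cDC2, 1021 higher (368 to 1235) and 889 lower (430 to 1102) in CLP-cDC2 minus CDP-cDC2, 525 higher (131 to 1082) and 346 lower (59 to 962) in the difference of lineage effects, 623 higher (133 to 1201) and 919 lower (370 to 1473) in CLP-cDC2 minus L-cDC2, 236 higher (26 to 1194) and 139 lower (46 to 828) in CDP-cDC2 minus M-cDC2. FPKM give no exact counts, so no counting intervals were set, and heavy chain values depend on how reads shared between copies were counted.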
